A study of Homo sapiens with 6 samples.

Results

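The HOXA genes HOXA2, HOXA3, HOXA4, HOXA5, HOXA6, HOXA7, HOXA9, HOXA10 and HOXA11, 9 of the 20007 protein-coding genes counted, were followed through 4 maps of H3K27ac (histone H3 acetylated at lysine 27). They were chosen by name as neighbours in 1 gene cluster, after the HOXA9 and HOXA10 promoter values of these libraries were known. The promoter bases that chose them are therefore given as a description, with no test. HOXA13, at the 5′ end of the cluster, is treated as a neighbour. The region read here was chr7:27090354-27195232 of hg38 (104879 bases), from 10 kb past the outermost ends of the 9 genes, all of which lie on the minus strand.

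The mark was profiled by CUT&Tag, which uses an antibody to bring a transposase to the modified histone and to tag the DNA beside it. The cells were 2 acute myeloid leukemia (AML) lines, each with a control hairpin (NC) or, in sh-ANP32B cells, a hairpin against ANP32B, a histone chaperone of the acidic nuclear phosphoprotein family. The labels call the NC cells untreated, whereas the methods of the study describe stable lines with a control hairpin selected with puromycin. Which of the hairpins against ANP32B was used for these maps is not given in the sources used here. Kasumi-1 carries the RUNX1::RUNX1T1 fusion and MV4-11 carries a fusion of KMT2A. Each of the 4 groups (Kasumi-1 NC, Kasumi-1 sh-ANP32B, MV4-11 NC, MV4-11 sh-ANP32B) was 1 peak list called on merged replicates, so there was no spread between replicates and no test, and every difference below compares these libraries. A peak list holds positions and widths of peaks but no heights, so each value is an extent of acetylation and not its strength, and the read depth is unknown. Values of a line are given with NC before sh-ANP32B, and rows of 4 values run through the Kasumi-1 pair and then the MV4-11 pair.

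HOX genes encode homeodomain transcription factors that set position along the body axis. Within a cluster they lie in the order in which they act, with the 3′ genes used in anterior and early tissues and the 5′ genes in posterior and later ones. In blood, HOXA9 and its partner MEIS1 maintain stem and progenitor cells, and KMT2A fusions are known to keep the 5′ HOXA genes and MEIS1 active in leukemia. H3K27ac marks active promoters and enhancers, and broad stretches of it are typical of genes that define a cell's identity.

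The markers of the lines did not all follow the labels. RUNX1T1, POU4F1 and KIT, genes typical of Kasumi-1, had 0 bases under promoter peaks in all 4 libraries, those labelled Kasumi-1 included. In the fusion RUNX1T1 is read from the RUNX1 promoter, so that its own start need not be marked, and KIT and POU4F1 are the more direct of these markers. MEIS1, listed for MV4-11, had 3103 and 3264 bases in the pair labelled Kasumi-1 and 3337 and 3123 in the pair labelled MV4-11. HOXA9 and HOXA10, also listed for MV4-11, ran against the labels, with 4335 and 4707 bases (HOXA9) and 5001 and 5001 bases (HOXA10) in the pair labelled Kasumi-1, beside 769 and 659 and 2648 and 1638 in the pair labelled MV4-11. The names Kasumi-1 and MV4-11 below are those of the labels, and whether a label is wrong was not tested. Of 8 myeloid markers, 6, 6, 6 and 4 had a promoter peak in the 4 libraries. MPO had 0 bases in all 4 libraries, and PTPRC had 0 in both Kasumi-1 libraries and 403 and 8 in the MV4-11 pair. Of the markers of other cell types, CD3E, EPCAM and ALB had 0 bases in all 4. ANP32B itself had 3447, 3432, 3433 and 2631 bases, which does not check a knockdown that acts on RNA. On chromosomes 1 to 22, X and Y the libraries held 22136 to 24523 peaks over 23.0 to 33.7 Mb, with median widths of 742 to 1044 bases.

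Sequences upstream of the starts of HOXA3, HOXA7, HOXA9 and HOXA10 are shown because the extent of acetylation at these starts differed most between libraries. They are from RefSeq promoters (GRCh38.p14), minus strand, 5′ to 3′, at chr7:27152584-27152733, chr7:27156755-27156825, chr7:27165538-27165687 and chr7:27174321-27174470. For HOXA3, HOXA9 and HOXA10 they are the 150 bases just before the start, and for HOXA7 only the farthest 71 of those 150 are printed, since the rest overlaps an untranslated exon part of another HOXA7 transcript. Capitals mark motifs on either strand: the TATA box (TATAAA), the CCAAT box, the GC box (GGGCGG), a site of HOX and PBX proteins (TGATTNAT) and the E-box (CACGTG).

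HOXA3: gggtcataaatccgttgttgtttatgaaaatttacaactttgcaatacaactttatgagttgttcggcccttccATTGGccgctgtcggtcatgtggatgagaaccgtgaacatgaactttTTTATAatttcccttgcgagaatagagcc

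HOXA7: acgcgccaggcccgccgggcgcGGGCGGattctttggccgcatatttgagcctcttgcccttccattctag

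HOXA9: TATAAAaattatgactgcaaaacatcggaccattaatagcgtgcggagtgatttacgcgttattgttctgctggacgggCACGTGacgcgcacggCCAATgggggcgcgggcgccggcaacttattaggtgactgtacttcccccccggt

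HOXA10: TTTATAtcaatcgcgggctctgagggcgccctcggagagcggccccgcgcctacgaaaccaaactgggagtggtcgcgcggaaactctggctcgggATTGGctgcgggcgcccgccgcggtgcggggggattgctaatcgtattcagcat

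In the 150 bases before the start, HOXA3 held 1 TATAAA and 1 CCAAT, HOXA9 held 1 TATAAA, 1 CCAAT and 1 CACGTG, and HOXA10 held 1 TATAAA and 1 CCAAT. The stretch printed for HOXA7 held 1 GGGCGG, and its whole 150 bases held 2 GGGCGG and 1 CCAAT. None of the 4 printed stretches held TGATTNAT, which HOXA2 held once in its own 150 bases. Over all 35116 promoters of the table, each 300 bases long, 11.5% held TATAAA, 34.6% CCAAT, 45.0% GGGCGG, 2.82% TGATTNAT and 7.26% CACGTG. These matches describe the letters of the sequence and are not evidence of binding. All 150 bases printed for HOXA9 and for HOXA10 lay under peaks in both Kasumi-1 libraries, and none of them did in either MV4-11 library. The HOXA3 stretch lay wholly under peaks in 3 libraries and outside peaks in MV4-11 sh-ANP32B.

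The region carried wide acetylated blocks in the Kasumi-1 libraries and short separate peaks in the MV4-11 libraries. Kasumi-1 NC had 10 peaks over 43114 bases, 41.1% of the region. Kasumi-1 sh-ANP32B had 10 peaks over 44611 bases (42.5%). MV4-11 NC had 14 peaks over 13769 bases (13.1%), and MV4-11 sh-ANP32B had 13 peaks over 12188 bases (11.6%). The MV4-11 libraries thus had more peaks in the region and fewer bases under them. The median peak width was 3009 and 3064.5 bases in the Kasumi-1 pair and 935 and 544 in the MV4-11 pair. The widest peaks measured 12427, 12431, 1928 and 2385 bases, so that the widest MV4-11 peak was narrower than the median Kasumi-1 peak. The difference in coverage was much larger than that of the whole lists: the ratio of MV4-11 NC to Kasumi-1 NC was 0.319 in the region (log2 -1.65), 0.865 over chromosome 7 and 0.853 over all chromosomes counted.

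**Figure D1:**
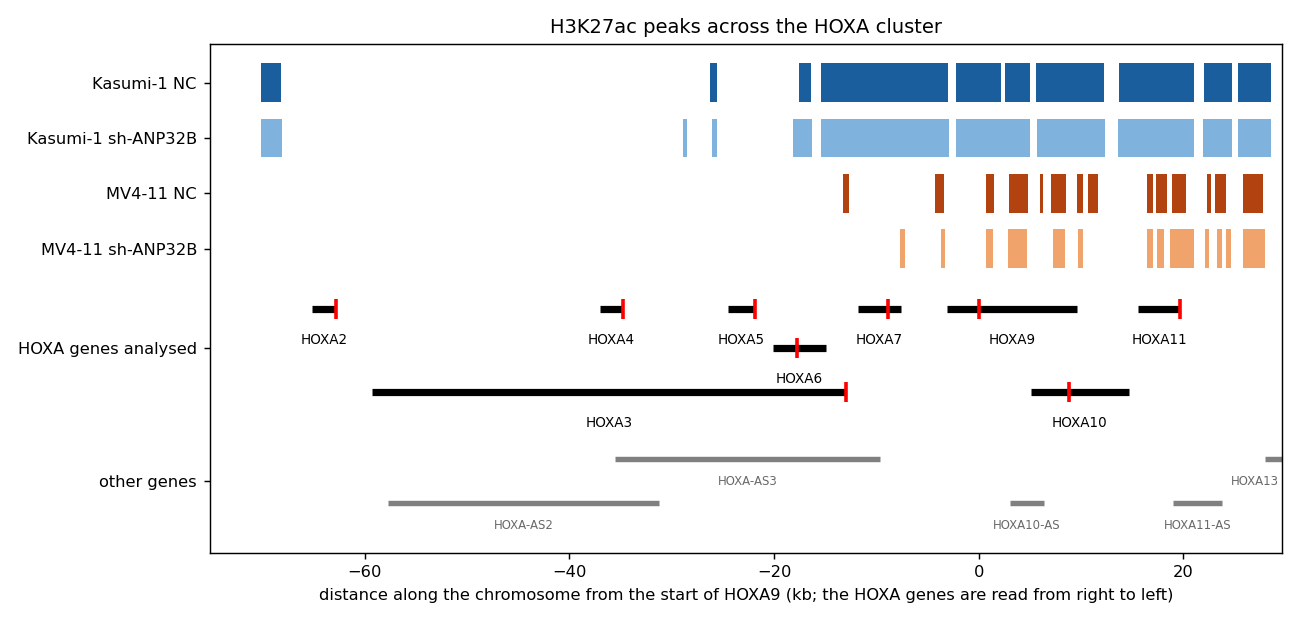
Peaks of each library (colored bars, 1 row per library) across the HOXA region, plotted by distance along the chromosome from the start of HOXA9 in kb, with the 9 genes in black (red ticks mark the start of the canonical transcript) and some other genes in grey. The Kasumi-1 rows are nearly filled from HOXA6 to the right end, and the MV4-11 rows hold 14 and 13 short peaks, all to the right of HOXA6.

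Acetylation divided the cluster between HOXA5 and HOXA6. In the 3′ part, from the left end of the region to the edge of the HOXA6 promoter window (chr7:27090354-27145273), peaks covered 5.01% and 5.32% in the Kasumi-1 pair and 0% in both MV4-11 libraries. In the 5′ part (chr7:27145274-27195232) they covered 80.8%, 83.5%, 27.6% and 24.4%. The longest gap between peaks was 41889 and 39230 bases in the Kasumi-1 pair, within the 3′ part. Acetylation ran on past the right end of the region: in Kasumi-1 NC the last peak inside ended 1146 bases before that end and the next began 3063 bases past it. To the left, the nearest peak outside the region lay 225236 bases away in Kasumi-1 NC and 58144 bases away in MV4-11 NC.

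**Figure D2:**
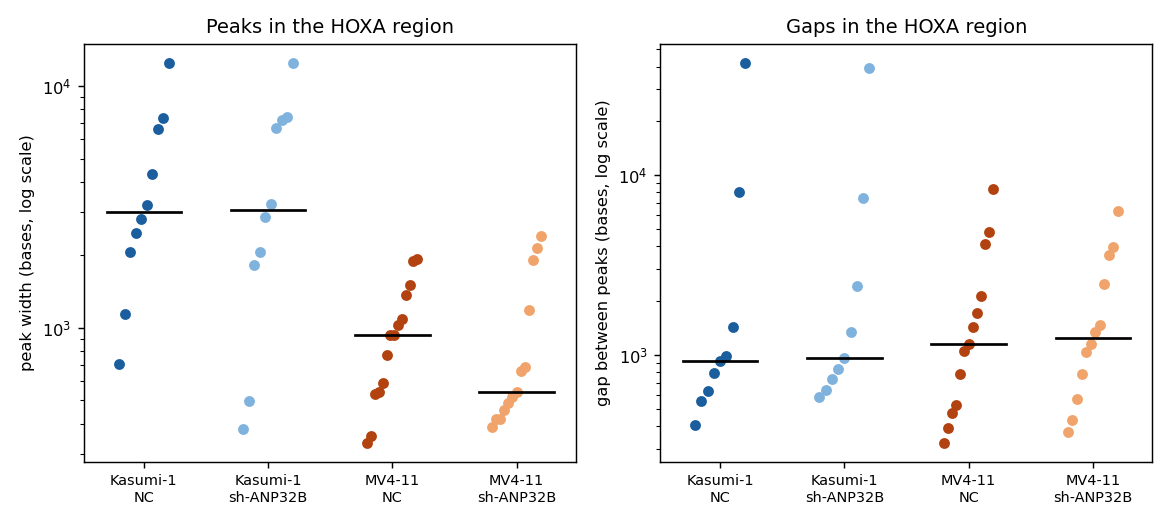
Width of every peak (left) and length of every gap between neighbouring peaks (right) in the HOXA region, in bases on a log scale, with 1 point per peak or gap and a black line at the median of the library. The Kasumi-1 medians of width are 3009 and 3064.5 bases, above every MV4-11 peak, while the median gaps differ little, from 922 to 1240 bases.

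Around the start of each gene's canonical GENCODE transcript a promoter window was laid, reaching 2500 bases both ways (5001 bases in all), and the bases of it under peaks were counted. Peaks reached into the window at 6, 6, 4 and 4 of the 9 genes, beside 47.7%, 45.3%, 35.8% and 28.6% of all protein-coding genes. The median over the 9 genes was 4079, 4172, 0 and 0 bases, and the median over all protein-coding genes was 0 in each library. Among all genes with a promoter peak the medians were 1500, 1522, 1047 and 910 bases.

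**Figure D3:**
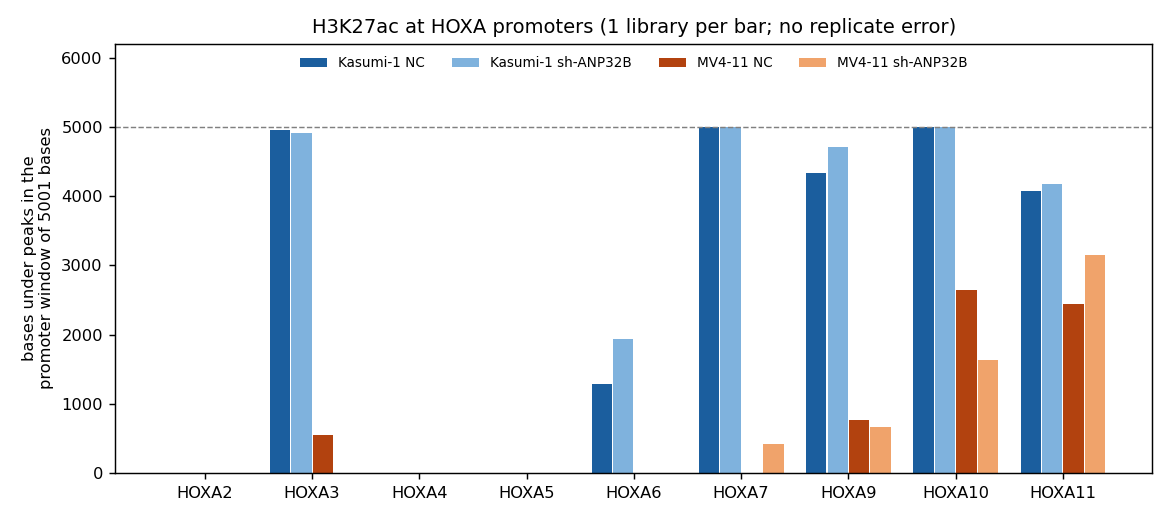
Bases under peaks in the promoter window of each HOXA gene, with 1 bar per library and a dashed line at the full window of 5001 bases; there is no error bar because each group is 1 library. HOXA7 and HOXA10 reach the dashed line in both Kasumi-1 libraries, and HOXA2, HOXA4 and HOXA5 have no bar in any library.

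The 3′ genes HOXA2 and HOXA4, which pattern the hindbrain and neck, and HOXA5, which acts in lung and trunk development and has also been studied in blood, had 0 bases under promoter peaks in all 4 libraries. From the HOXA2 start (27102683) the nearest peak lay 5301 and 5281 bases away in the Kasumi-1 pair, and 49628 and 55186 bases away in the MV4-11 pair. From the HOXA4 start (27130757) these distances were 8515, 5876, 21554 and 27112 bases. From the HOXA5 start (27143681) they were 3704, 3704, 8630 and 14188 bases. The nearest peak was thus farther from each of the 3 starts in the MV4-11 libraries, and farther again in the sh-ANP32B than in the NC library of MV4-11. In each MV4-11 library the same peak was nearest to all 3 starts. It was chr7:27152311-27152853 in NC and chr7:27157869-27158286 in sh-ANP32B, so the longer distances are a single difference between the lists. No base of the bodies of these 3 genes lay under a peak in any library.

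HOXA3, a regulator of pharyngeal organs such as the thymus, has its canonical start at 27152583, next to HOXA6 and far from its own last exon. Its window held 4953 and 4917 bases in the Kasumi-1 pair and 543 and 0 in the MV4-11 pair. The Kasumi-1 values came from the widest peak of the region, chr7:27150131-27162557 in NC, which also held the start of HOXA7 and ranked 25 by width among the 22768 peaks of its list. In Kasumi-1 sh-ANP32B the same peak measured 12431 bases and ranked 22 of 23878. The MV4-11 NC value was a single peak of 543 bases over the start itself, chr7:27152311-27152853, and no peak of the MV4-11 sh-ANP32B list overlapped it.

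HOXA6, little studied in blood, had 1281 and 1930 bases in the Kasumi-1 pair and 0 in both MV4-11 libraries. Its start (27147774) was under a peak in Kasumi-1 sh-ANP32B only among the 4 libraries, since the nearest Kasumi-1 NC peak ended 240 bases upstream of it. That peak was 1137 bases wide in NC and 1822 in sh-ANP32B, a difference of 685 bases, most of it on the side of the HOXA6 start.

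HOXA7, one of the HOXA genes that KMT2A fusions activate, had its whole window of 5001 bases under peaks in both Kasumi-1 libraries, and 0 and 418 bases in the MV4-11 pair. In each Kasumi-1 library 63 of the 20007 genes had the whole window covered, against 8 and 4 in the MV4-11 pair, and a window that is full cannot show an increase. The 418 bases were 1 peak, chr7:27157869-27158286, 1194 bases upstream of the start (27156675), where MV4-11 NC had none. HOXA7 thus had a full window in Kasumi-1 and at most 418 bases of it covered in MV4-11.

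HOXA9, the leukemia gene of the cluster, had 4335 and 4707 bases in the Kasumi-1 pair and 769 and 659 in the MV4-11 pair. Its canonical start (27165537) was covered in both Kasumi-1 libraries and in neither MV4-11 library, where the nearest peak lay 742 and 724 bases upstream. Among all genes its window ranked 179, 102, 4661 and 3771 by bases covered. In Kasumi-1 NC the HOXA9 peak (chr7:27163345-27167679, 4335 bases) was parted from the next one (2461 bases) by a gap of 409 bases, and in Kasumi-1 sh-ANP32B 1 peak of 7224 bases spanned both. The gain of 372 bases at HOXA9 in that library lay almost wholly in this former gap.

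HOXA10, which blocks differentiation of myeloid progenitors when overexpressed, had 5001 bases in both Kasumi-1 libraries and 2648 and 1638 in the MV4-11 pair. Its start (27174320) lay under a peak in both Kasumi-1 libraries. In the MV4-11 libraries the start fell in a gap of 1052 bases (NC) or 1336 bases (sh-ANP32B), with peaks on both sides of it. MV4-11 NC had 3 peaks in the window and MV4-11 sh-ANP32B had 2, since the NC peak chr7:27176264-27177199 (936 bases) had no counterpart.

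HOXA11, a regulator of limb, kidney and uterus, had 4079 and 4172 bases in the Kasumi-1 pair and 2442 and 3156 in the MV4-11 pair. Its start (27185232) was the only one of the 9 under a peak in all 4 libraries. The peak over the start measured 7349, 7417, 1358 and 2385 bases. Of the 3 genes with a promoter peak in all 4 libraries (HOXA9, HOXA10 and HOXA11), HOXA11 had the smallest ratio between its highest and its lowest value.

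The knockdown libraries were compared with NC first within Kasumi-1. Coverage of the region was 41.1% and 42.5%, a difference of 1.43 percentage points and a ratio of 1.03, as over chromosome 7 (1.03) and all chromosomes (1.03). Of the 43114 NC bases 99.3% were also covered in sh-ANP32B, 306 were covered in NC alone, and 1803 in sh-ANP32B alone. All 10 NC peaks overlapped a sh-ANP32B peak, and 1 sh-ANP32B peak of 379 bases (chr7:27136633-27137011) overlapped none. Over the 8 peaks matched 1 to 1, 6 were wider and 2 narrower in sh-ANP32B, and edges moved by a median of 42.5 bases. The sharing of peaks and bases over the whole lists is not given here, so these counts describe the region alone. A gene was called higher or lower where its promoter bases changed at least 1.5-fold or went to or from 0. By this rule 0 HOXA genes were lower, where 14.6% of the 9705 genes with a promoter peak in either Kasumi-1 library were lower. Only HOXA6 was higher (1.51-fold, just past the limit), where 4.86% of genes were higher, and the other 5 genes with a peak were neither. The median change was 46.5 bases over these 6 HOXA genes and 0 bases over all genes with a peak, so the extent of HOXA acetylation was close to equal in the 2 Kasumi-1 libraries. HOXA6 was no longer called with peaks at most 1000 bases apart joined, with a window of 5000 bases to each side, with all annotated starts or with a fold of 2.

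Within MV4-11 fewer of the covered bases were shared between NC and sh-ANP32B. Coverage of the region was 13.1% and 11.6%, a difference of -1.51 percentage points and a ratio of 0.885, beside 0.810 for chromosome 7 and 0.825 for all chromosomes. The ratio was thus nearer to 1 in the HOXA region than over the list as a whole, but with no flank, from the first to the last base of the 9 genes, it was 0.732 (11.7% and 8.54% covered). Of the NC bases 69.6% were still covered, 4191 bases were covered in NC alone and 2610 in sh-ANP32B alone. Of the 14 NC peaks 3 overlapped nothing in sh-ANP32B, and of the 13 sh-ANP32B peaks 2 overlapped nothing in NC. Over the 11 matched peaks 6 were narrower and 5 wider, from -546 to 1027 bases, with a median edge shift of 144.5 bases. Without the same counts over the whole MV4-11 lists, these do not set HOXA peaks apart from other peaks. HOXA3 and HOXA10 were lower, the latter with a ratio of 0.619, where 45% of the 7468 genes with a promoter peak in either MV4-11 library were lower. HOXA7 was higher, from 0 to 418 bases, where 7.28% of genes were higher. HOXA9 (ratio 0.857) and HOXA11 (1.29, the nearest to the limit among those not called) were neither. The median change over the 5 HOXA genes with a peak was -110 bases, beside -323 over all genes with a peak, so the HOXA count of 2 lower in 5 was near the share of all genes. With a window of 5000 bases to each side 4 HOXA genes were lower, HOXA7 among them, and with only peaks of at least 1000 bases 0 were lower and 0 higher.

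**Figure D4:**
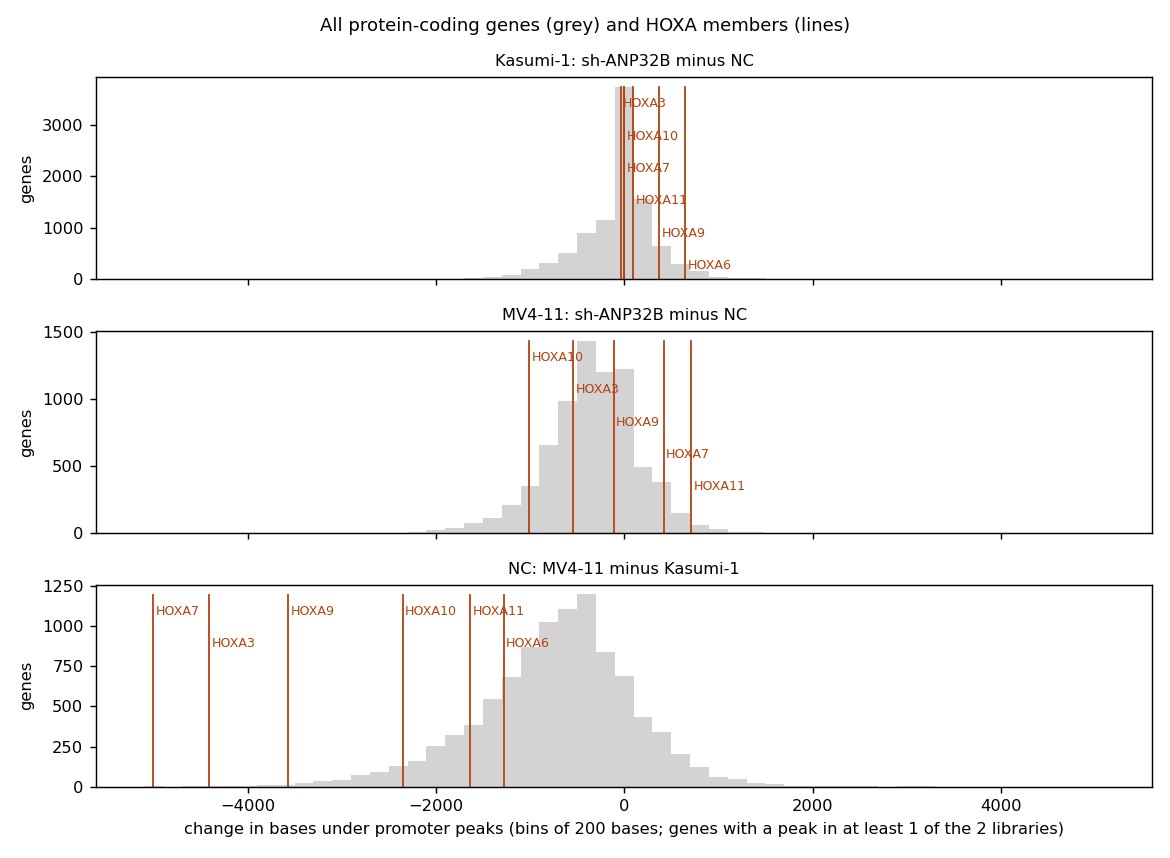
Change in bases under promoter peaks for all protein-coding genes with a promoter peak in either library compared (grey histogram, bins of 200 bases) and for the HOXA genes among them (lines), for sh-ANP32B minus NC in each line and for MV4-11 NC minus Kasumi-1 NC. In the lowest panel all 6 HOXA lines lie left of the bulk of genes, from -1281 (HOXA6) to -5001 bases (HOXA7).

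Between the NC libraries of the lines, the 6 HOXA genes with a promoter peak were all lower in MV4-11, where 61.9% of the 9815 genes with a promoter peak in either library were lower and 5.84% were higher. The HOXA changes were -5001 bases for HOXA7, -4410 for HOXA3, -3566 for HOXA9, -2353 for HOXA10, -1637 for HOXA11 and -1281 for HOXA6, with a median of -2959.5, and the median over all genes with a peak was -658. The promoter values that brought these genes to attention are of this contrast, so the count adds no support. MV4-11 NC is also the reference of the MV4-11 knockdown, and Kasumi-1 NC that of the Kasumi-1 knockdown. HOXA9 and HOXA10 are themselves listed as markers of MV4-11 and ran against the labels, while KIT and POU4F1 had 0 bases in both lines, so this contrast rests on the line labels, and whether a label is wrong was not tested.

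The MV4-11 peaks lay inside the Kasumi-1 blocks. All 14 MV4-11 NC peaks lay wholly under Kasumi-1 NC peaks, and 4 of the 12188 bases of MV4-11 sh-ANP32B lay outside both Kasumi-1 libraries. All MV4-11 peaks were in the 5′ part, of which Kasumi-1 NC peaks covered 80.8%, so wide coverage alone would give much overlap. The share of MV4-11 peaks inside Kasumi-1 peaks over the whole lists is not given here. The bases covered in all 4 libraries came to 9578, in 11 stretches. The widest were chr7:27191378-27193305 (1928 bases) between HOXA11 and HOXA13, chr7:27168465-27170300 (1836 bases) between the HOXA9 and HOXA10 starts, chr7:27184422-27185779 (1358 bases) over the HOXA11 start and chr7:27172759-27173938 (1180 bases) within the HOXA10 gene. The shared bases had 63.3% GC and 63.0 CpG per 1000 bases. The bases covered in both Kasumi-1 libraries and in no MV4-11 library (26445 bases) had 55.9% GC and 46.7 CpG, and the bases covered in none (59958) had 47.4% and 26.1. GC content therefore fell in step with the number of lines in which a base was covered, and its part in the peak calls was not tested.

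Even the wide Kasumi-1 blocks were broken at fixed places. From HOXA6 to the right end, 6 gaps were shared by both Kasumi-1 libraries, 552 to 1331 bases long and 4993 bases in all, with 38.8% GC. MV4-11 NC had 0 and MV4-11 sh-ANP32B had 4 bases under peaks in them, which restates that the MV4-11 peaks lay inside the Kasumi-1 blocks. The gap of 733 bases at chr7:27162598-27163330 lay wholly in a noncoding exon part of HOXA9, and 574 of the 624 bases at chr7:27170555-27171178 lay in noncoding exon sequence of HOXA10. These 2 gaps thus lay at the 3′ ends of HOXA9 and HOXA10 and not at their starts.

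The stretch between the HOXA9 and HOXA10 starts that was covered in all 4 libraries holds the microRNA gene MIR196B (chr7:27169480-27169563), whose products repress HOX messenger RNAs. Both mature microRNAs lay under a peak in every library and are shown here from RefSeq with the seed (bases 2 to 8) in capitals, since they lie in 1 of the 11 stretches covered in all 4 libraries.

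hsa-miR-196b-5p: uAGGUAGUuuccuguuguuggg

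hsa-miR-196b-3p: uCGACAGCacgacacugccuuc

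The noncoding RNA HOXA10-AS starts in the same stretch, and its window held 3963, 4365, 2528 and 2430 bases, with the start covered in all 4. HOXA11-AS, the antisense neighbour of HOXA11, held 4588, 4600, 2971 and 3608 bases, also with its start covered in all 4. HOXA13, at the far 5′ end, held 4297, 4318, 1346 and 784 bases. Peaks carry no strand, so acetylation of HOXA10 or HOXA11 cannot be told apart from that of its antisense partner.

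CTCF, a factor that parts active from silent stretches of HOX clusters, was followed through its sequence alone. A loose core of its motif, 12 bases long with 7 of them fixed and searched on both strands of hg38, occurred 35 times in the region, or 3.34 times per 10000 bases, beside 0.745 over chromosome 7. Of the 35 cores, 26 lay under peaks in each Kasumi-1 library and 11 and 8 in the MV4-11 pair. Most fixed bases of the core are G or C. The region had 51.7% GC, with 57.7% under Kasumi-1 NC peaks and 47.4% in the bases covered in no library. The part of base composition in these counts was not tested. Of the cores between HOXA7 and HOXA9, that at chr7:27161138-27161149 (minus strand) is printed with 9 bases to each side, the core in capitals, because it lies beside the MV4-11 peak edge that moved with the knockdown.

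CTCF core: aaacggcggCCAGCAGATGGCagtgtggct

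It lay under a peak in both Kasumi-1 libraries. In the MV4-11 libraries it lay 90 bases from the nearest peak edge in NC and 750 bases in sh-ANP32B. The peak in question narrowed from 934 to 388 bases. A core match is loose and does not show that CTCF is bound.

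Among the 4 HOX clusters, read in the same way over all their genes with 10 kb to each side, HOXA was the most covered in every library. HOXA, here over all its genes, had 37.8%, 39.1%, 11.9% and 10.2% under peaks. HOXC had 13.2%, 14.4%, 7.44% and 3.50%. HOXD had 0.776%, 1.05%, 0.423% and 0.921%, and HOXB had 0.169%, 0.176%, 0% and 0%. In MV4-11 the covered bases of sh-ANP32B were 0.858 times those of NC in HOXA and 0.471 times in HOXC.

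**Figure D5:**
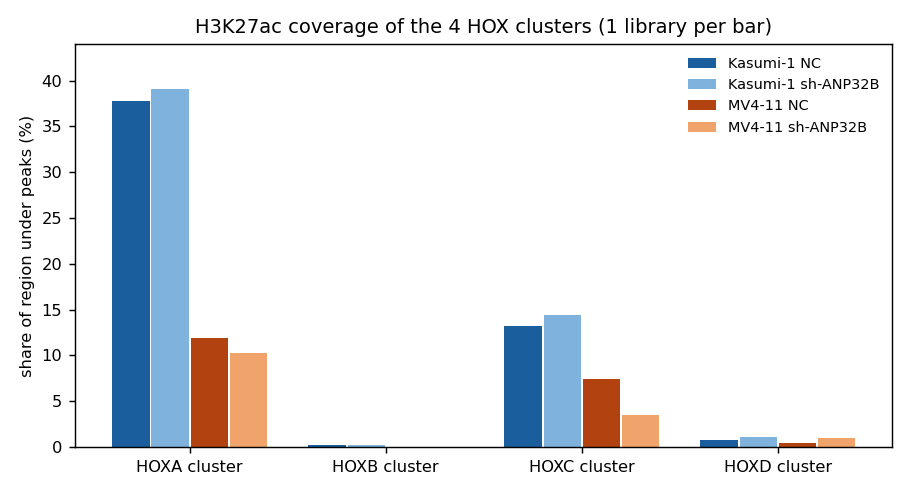
Share of each HOX cluster under H3K27ac peaks in percent, read over all genes of the cluster with 10 kb to each side, with 1 bar per library and no replicate error. HOXA has the tallest bar of each library, HOXC is second, and HOXB and HOXD stay at or below 1.05%.

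The cofactors of HOX proteins counted here were MEIS1, MEIS2, PBX2, PBX3, PBX4 and PKNOX1. A promoter peak was present at 4, 4, 3 and 2 of these 6 genes. PBX3, a partner of HOXA9 in leukemia, had 2616, 1570, 0 and 0 bases. PBX2 had 3931, 3952, 1439 and 0 bases. MEIS2 and PBX4 had 0 in all 4. By the 1.5-fold rule 1 cofactor was lower with the knockdown in Kasumi-1 and 2 in MV4-11, and 2 were lower in MV4-11 NC than in Kasumi-1 NC, with 0 higher in each contrast. Of all genes with a promoter peak in either library 14.6%, 45% and 61.9% were lower in these contrasts, beside 1 of 4, 2 of 3 and 2 of 4 cofactors. The shares of all such genes that were higher were 4.86%, 7.28% and 5.84%. In the MV4-11 pair the promoter window of MEIS1 held 3337 and 3123 bases under peaks, and that of HOXA9 held 769 and 659.

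Of 7 chromatin regulators of HOX genes, 6, 7, 6 and 5 had a promoter peak. KMT2A, which maintains HOX expression by methylating histone H3 at lysine 4, had 3545, 3584, 576 and 0 bases, the lowest values being those of the MV4-11 libraries. DOT1L, the lysine 79 methyltransferase that KMT2A fusions recruit, had 3682, 3901, 1880 and 2013 bases. EZH2, SUZ12 and EED, subunits of the Polycomb complex that silences HOX clusters, had 2518, 1704 and 1633 bases in Kasumi-1 NC and 2291, 1235 and 820 in MV4-11 NC. The menin gene MEN1 had 538 bases in Kasumi-1 sh-ANP32B and 0 in the other libraries, and PSIP1, which encodes the chromatin tether of the KMT2A complex, had 1352, 1148, 826 and 859. In Kasumi-1, 0 regulators were lower and 1 was higher with the knockdown, in MV4-11 2 were lower and 0 higher, and 4 were lower and 0 higher in MV4-11 NC than in Kasumi-1 NC. All 7 regulators had a promoter peak in at least 1 Kasumi-1 library, and of all such genes 14.6% were lower and 4.86% higher. In the other contrasts 2 of 6 and 4 of 6 regulators with a promoter peak were lower, beside 45% and 61.9% of all genes. Of all genes 7.28% and 5.84% were higher in these 2 contrasts.

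Outside the HOX clusters, the genes whose 4 promoter values lay nearest to the median over the 9 HOXA genes, by the sum of absolute differences over the 4 libraries, were ROGDI (91 bases), MC1R (268), SOX12 (311), ENSG00000198211 (338) and CCND2 (455). ROGDI had 4049, 4233, 0 and 0 bases, and CCND2, the cyclin D2 gene, had 4211, 4171, 322 and 0.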

How the data were processed

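H3K27ac CUT&Tag was available as 4 peak lists, 1 per group, and 2 IgG samples were not used here. The deposited lists give position and length in bases of each peak in hg38, the unit used here. By the methods of the study, the authors aligned reads with Bowtie2 (v2.2.5), removed duplicates with Picard, merged replicates with samtools (v1.15.1) and called peaks with MACS2 (v2.2.7) at q 0.01. The submitters' processing notes name Bowtie2 2.4.4 and MACS3 3.0 instead. Whether IgG served as control is not given in the sources used here. Depth is unknown. The narrowest peaks measured 357 and 354 bases in the Kasumi-1 lists (NC, sh-ANP32B) and 289 and 275 in the MV4-11 lists, so the caller's limits differed between lists.

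Bases under peaks were counted with Python 3.11.15 and numpy 2.4.6 on GENCODE release 44, after the counting was tested on simulated data, and figures were drawn with matplotlib 3.10.9. With 1 library per group no test was made. The members and lists were chosen with earlier results of these data known. Named genes were the 9 members, genes overlapping the region, lists of HOX cofactors, chromatin regulators and cell markers, and the 5 genes with promoter values nearest to the members' median. The genes that tell the lines apart came from an earlier analysis of the series. Some listed or neighbouring genes are not reported here. Of the 9 members 8 matched the RefSeq promoter table. Alternatives changed the joining and minimum width of peaks, the region, the window, the start and the fold.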

Additional observations from a re-analysis of the deposited data

Results flagged for a closer look

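The knockdown went with opposite directions in the 2 lines for the HOXA region as a whole and for HOXA9. The share of the region under peaks changed by 1.43 percentage points in Kasumi-1 and by -1.51 in MV4-11. The ratio of covered bases over all chromosomes, 1.03 in Kasumi-1 and 0.825 in MV4-11, ran the same ways, so the opposition is not particular to HOXA. At HOXA9 the bases under promoter peaks changed by 372 in Kasumi-1 and by -110 in MV4-11, where the change was 18 bases with a window of 1000 bases to each side. Each group was 1 library, so neither difference between the lines was tested.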

How the results depend on the processing

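The share of the region under peaks kept its direction in every contrast under all 6 alternatives. In Kasumi-1 it rose by 0.911 percentage points with peaks at most 1000 bases apart joined and by 0.856 with a flank of 50000 bases. In MV4-11 the difference between sh-ANP32B and NC was -1.16 with 1 minimum width and joining gap of 357 bases, -1.83 with peaks joined, -1.12 with only peaks of at least 1000 bases, -3.13 with no flank and -1.16 with the wide flank. Between the NC libraries it was -29.7 with peaks joined, -32.1 with only wide peaks, -25.9 with the region of all HOXA genes and -17.8 with the wide flank. Of the HOXA genes, 1 was lower with the knockdown in Kasumi-1 when any change counted. The number higher in Kasumi-1 was 0 with peaks joined, with a window of 5000 bases to each side, with all annotated starts or with a fold of 2, and 3 with any change. In MV4-11 the number lower was 0 with only wide peaks, 1 with a window of 1000 bases or a fold of 2, and 4 with the window of 5000 bases. The number higher was 0 with only wide peaks or with either other window, and 2 with any change. HOXA7 in MV4-11 turned from higher to lower with the window of 5000 bases, where the difference was -5.73 percentage points of the window. That window reached MV4-11 NC peaks at the HOXA3 start and beside HOXA9, and the peak at the HOXA3 start also lay in the windows of HOXA3 and HOXA6. No other called change of a single HOXA gene turned direction. Of changes that were not called, HOXA3 in Kasumi-1, HOXA9 in MV4-11 (18 bases with the window of 1000 bases) and HOXA11 in MV4-11 (-57 bases with only wide peaks) changed sign. The counts between the NC libraries stayed at 4 to 7 lower and 0 higher. The shares of all genes called under the alternatives are not given here. Depth and peak height, which the lists do not give, limit what a missing peak can show. No paired analysis was possible because each group is 1 library.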
